A study of Mus musculus with 6 samples.

Results

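The 34 genes described here are immediate early genes, heat shock genes and feedback genes of nuclear factor kappa B (NF-kB), found by symbol among the 33456 genes of the files. The list of symbols was drawn up with earlier results of these data known, so its share of calls is a description and not an independent comparison with other genes. By role they fall into 7 subunits of the transcription factor AP-1, 9 other immediate early or early transcription factors, 8 feedback inhibitors of signalling, RNA and growth, 6 heat shock proteins and 4 genes of the NF-kB pathway. All 34 were found and all 34 passed the filter on low counts, both in sums over whole samples and in sums over macrophage-like cells.

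Immediate early genes are transcribed within minutes of a signal from already present factors, with no new protein needed, and their short-lived products switch on later genes. Many of the same genes encode the brakes on that response: phosphatases that switch off MAP kinases, proteins that destroy AU-rich messenger RNA, and inhibitors that hold NF-kB in the cytoplasm. Heat shock proteins are chaperones that rise with misfolded protein through a separate factor, heat shock factor. In fat tissue macrophages, these genes are known both as marks of activation and as genes that respond when tissue is dispersed into single cells.

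The series profiled single cells of mouse visceral (epididymal) fat, with 3 samples from mice on a control diet and 3 from mice on a high-fat diet (labelled HFD), in a study of long-term obesity. In every sample the fat was minced, digested with collagenase at 37°C for 45 min, stained and sorted for CD45, carried by leukocytes, and CD11b, an integrin subunit carried mainly by myeloid cells. Strain, age, sex and length of the diet are not given in the sources used here, and neither is whether samples came from separate animals, so p-values measure only how these samples vary, and that variation may be technical. An undigested sample was not analysed here, so the part of a level set by digestion and the part already present in the tissue cannot be told apart.

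The 6 matrices list 5511 cell entries, but these come from 2195 distinct barcodes, and 1082 of those (49.3%) stand in more than 1 sample. Each barcode was counted only in the sample where it had most unique molecular identifiers (UMIs, the counted RNA molecules), where the count in the next sample was at the median 0.181 of the largest. This left 2114 cells, 986 control and 1128 HFD, with a median of 6299.5 to 8518.5 UMIs per cell in the control samples and 9261 to 10079 in the HFD samples. Among the kept cells, 1176 were macrophage-like by their markers, 38.5 to 47.0% of cells in control and 63.2 to 68.4% in HFD samples. Fibroblast-like cells, which are not leukocytes and go against the sort, made up 1.15 to 2.96% of control and 17.4 to 19.7% of HFD samples. RNA of the sort antigens was present in every sample, but lower in each HFD sample than in any control sample. Levels are in CPM, UMIs of the gene scaled to a common library total. Ptprc (CD45) stood at 218 to 244 CPM in control and 122 to 127 CPM in HFD samples. Itgam (CD11b) stood at 147 to 217 CPM in control and 84.2 to 86.4 CPM in HFD samples. Median mitochondrial shares were 2.54 to 3.15% in control and 2.38 to 2.59% in HFD, and ribosomal protein shares 15.3 to 17.0% and 12.9 to 13.6%; their part in the results below was not tested.

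Most of the 34 genes were lower in HFD samples. In sums of all kept cells of a sample, 22 were lower and 1, Socs3, was higher with an adjusted p below 0.05 (edgeR quasi-likelihood test, Benjamini-Hochberg adjustment over all genes), whereas 17.2% of the 10450 genes tested were called lower and 15.2% higher. The median log2 fold change of the 34 genes, HFD minus control, was -0.43, and that of all genes tested was -0.02. In macrophage-like sums 19 of the 34 were lower and 0 higher, against 10.2% lower and 6.81% higher among 8796 genes, and the median was -0.53 against -0.03. DESeq2 called 20 lower and 1 higher in whole samples, and 19 lower and 1 higher in macrophage-like sums. With libraries scaled by total counts alone, the medians of all genes moved up by 0.14 in whole samples and 0.09 in macrophage-like sums. The calls over all genes then went from 1593 higher and 1796 lower to 2322 and 1271 in whole samples, and from 599 and 895 to 876 and 735 in macrophage-like sums. The 34 genes under that scaling gave 3 higher and 19 lower calls, and 1 higher and 18 lower.

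Both sums called 16 genes, all lower: Fosb, Fosl2, Egr1, Egr2, Klf6, Nr4a1, Nr4a2, Nr4a3, Ier3, Zfp36, Ppp1r15a, Hspa1a, Hspa1b, Hsp90aa1, Dnajb1 and Nfkbiz. Whole samples alone called 7 (Junb, Btg2, Gadd45b, Socs3, Nfkbia, Tnfaip3 and Rel), macrophage-like sums alone called 3 (Jun, Klf2 and Ier2), and neither called 8 (Fos, Jund, Atf3, Cebpb, Dusp1, Dusp2, Hspa8 and Hsph1). Whether the difference between the sums is itself larger than the error was not tested. Leaving out each sample in turn, 18 of the 23 whole-sample calls held every time. The other 5 were Junb, which was lost without any 1 of the 6 samples, Gadd45b, lost without control 2, HFD 1 or HFD 3, Zfp36 and Btg2, lost without HFD 1, and Dnajb1, lost without HFD 2. Of the 19 macrophage-like calls 13 held every time, and those lost without at least 1 sample were Klf6, Nr4a2, Ier2, Zfp36, Ppp1r15a and Hsp90aa1. In sums over mixed cells, fewer cells of a type and less RNA per cell cannot be told apart.

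**Figure D1:**
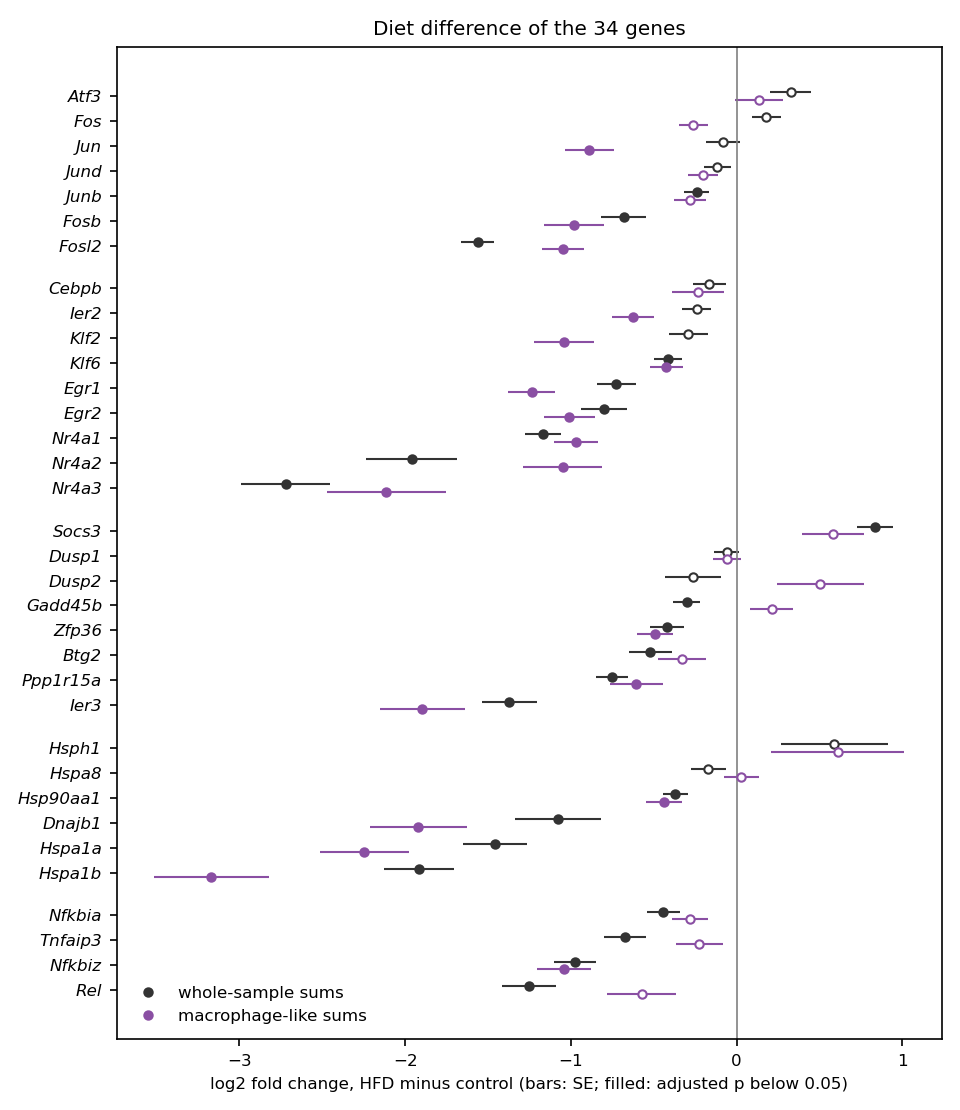
Log2 fold change (HFD minus control) of the 34 genes, with bars of 1 SE, in whole-sample sums (black) and macrophage-like sums (purple), 3 samples per diet; filled points have an adjusted p below 0.05. Points lie mostly left of 0, Nr4a3 farthest in whole samples and Hspa1b farthest in macrophage-like sums, and Socs3 is the one filled point to the right.

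Levels below are given as CPM scaled by the TMM factors of edgeR, in the order of samples 1, 2 and 3 of each diet. Read in this way without a test, 24 of the 34 genes had every HFD sample below every control sample in whole-sample sums (24.9% of all genes did) and 3 had every HFD sample above (23.5% of all genes). In macrophage-like sums the counts were 24 below (19.9% of all genes) and 0 above (18.7%).

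AP-1 is a dimer of Fos, Jun and Atf family proteins that binds DNA at the promoters and enhancers of growth and inflammation genes. Of its 7 subunits here, 3 were lower in whole samples (Fosb, Fosl2 and Junb) and 3 in macrophage-like sums (Fosb, Fosl2 and Jun), and 0 were higher in either. Fosl2, a Fos family member without the strong activating domain of Fos, measured 221, 214 and 231 CPM in the control samples and 70.1, 71.2 and 84.4 CPM in the HFD samples. The groups lay far apart, and the log2 fold change was -1.56 ± 0.10 (SE, adjusted p = 8.93e-05), with -1.05 ± 0.13 (SE, adjusted p = 0.00158) in macrophage-like sums. Fosb, another Fos partner of Jun proteins, stood at 442, 379 and 432 CPM in the control samples and 245, 220.0 and 317 CPM in the HFD samples. Every HFD sample was below every control sample, with HFD 3 the nearest to control, and the log2 fold changes were -0.68 ± 0.14 (SE, adjusted p = 0.0058) and, in macrophage-like sums, -0.98 ± 0.18 (SE, adjusted p = 0.00876). Counting only barcodes listed in 1 sample, the whole-sample call for Fosb was lost (-0.37, adjusted p = 0.095).

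Junb, the subunit with the highest level, measured 3255, 3079 and 3272 CPM in the control samples and 2612, 2717 and 2793 CPM in the HFD samples. The groups did not overlap but the change was small, -0.24 ± 0.08 (SE, adjusted p = 0.0401), and besides each left-out sample DESeq2 (adjusted p = 0.104) ended the call. Fos itself, the founding immediate early gene, went the other way in whole samples, at 1673, 1611 and 1873 CPM in the control samples and 2009, 1932 and 1901 CPM in the HFD samples. All 3 HFD samples lay above the control samples, and the difference of 0.18 ± 0.09 (SE, adjusted p = 0.144) did not pass the test. In macrophage-like sums Fos measured 2286, 2125 and 2244 CPM in the control samples and 1928, 1843 and 1788 CPM in the HFD samples. There every HFD sample lay below every control sample, again without passing (-0.26 ± 0.09 SE, adjusted p = 0.0725). Without control 3 the whole-sample difference passed, at 0.26 (adjusted p = 0.0382), and it passed with total-count scaling (0.32, adjusted p = 0.0257) and with only barcodes in 1 sample (0.37, adjusted p = 0.0176).

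Jun, the usual partner of Fos, was described in full after its values were seen, because the sums differ. In whole samples it measured 837, 738 and 689.5 CPM in the control samples and 725, 763 and 655 CPM in the HFD samples. The groups overlapped, and the log2 fold change was -0.08 ± 0.10 (SE, adjusted p = 0.594). In macrophage-like sums it measured 1209, 1011 and 842 CPM in the control samples and 578, 594 and 484 CPM in the HFD samples, with no overlap and a log2 fold change of -0.89 ± 0.15 (SE, adjusted p = 0.00555). Fibroblast-like cells had the highest Jun of any class, 2495 ± 396 CPM (SD, n = 5 samples), against 778 CPM in macrophage-like cells, and their share differed between diets as given above; the part of this in the whole-sample value was not tested. Jund, which is present in resting cells, and Atf3, a stress-induced repressor that pairs with Jun proteins, passed in neither sum (Jund -0.12 and -0.20, Atf3 0.33 and 0.14).

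**Figure D2:**
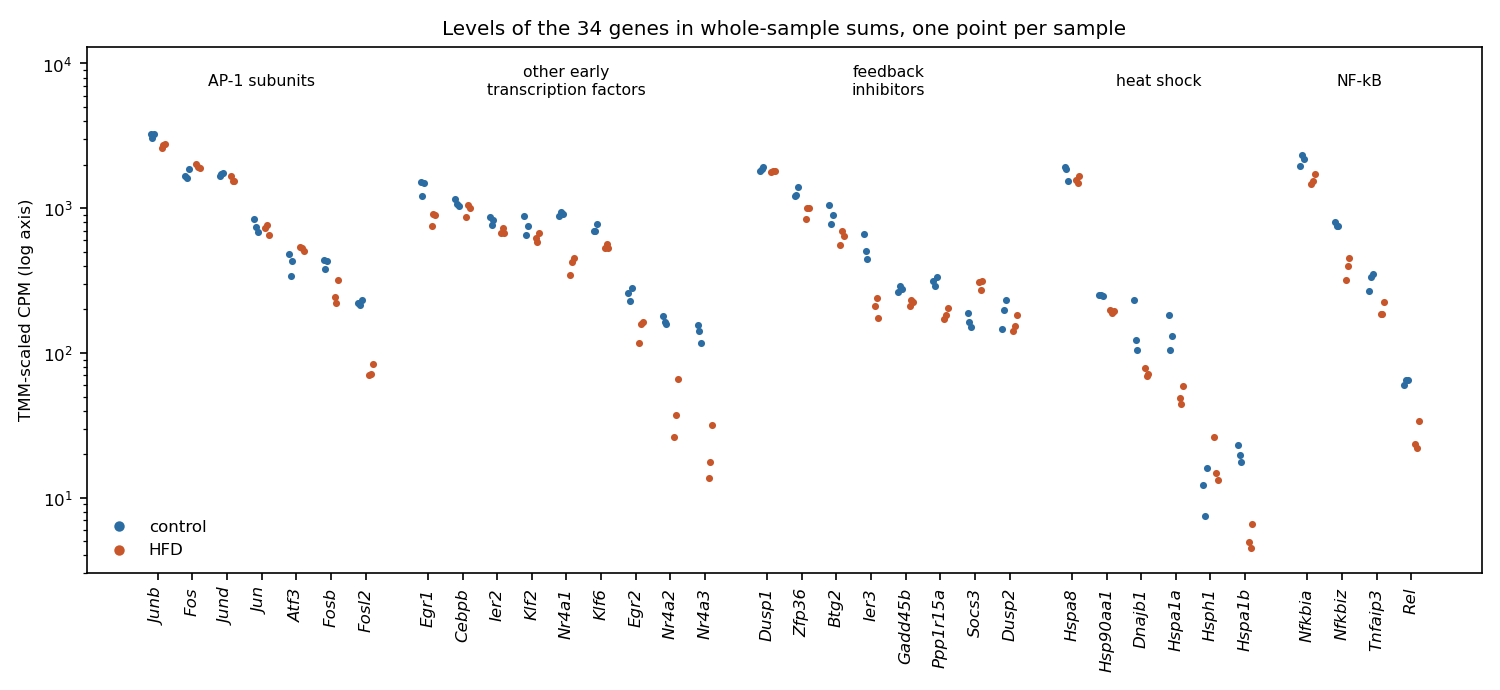
TMM-scaled CPM (log axis) of the 34 genes in whole-sample sums, 1 point per sample, control in blue and HFD in orange, grouped by role and sorted by level. Levels run from Junb near the top to Hspa1b at 4.49 to 23.3 CPM, and the widest gaps between the colours are those of Nr4a3, Nr4a2, Hspa1b and Fosl2.

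The other 9 transcription factors were all below 0 in both sums, with 6 called in whole samples (Egr1, Egr2, Klf6, Nr4a1, Nr4a2 and Nr4a3) and 8 in macrophage-like sums (the same 6 with Klf2 and Ier2). The orphan nuclear receptors Nr4a1, Nr4a2 and Nr4a3 act without a known natural ligand, and their activity is set by how much of them a cell makes. Nr4a3 measured 156, 141 and 117 CPM in the control samples and 13.6, 17.7 and 31.8 CPM in the HFD samples. Control and HFD samples were several-fold apart, with HFD 3 the highest of its group, and the log2 fold change was -2.72 ± 0.27 (SE, adjusted p = 0.00027). In macrophage-like sums Nr4a3 measured 99.2, 70.0 and 48.8 CPM in the control samples and 9.39, 16.9 and 25.5 CPM in the HFD samples, again without overlap, with a log2 fold change of -2.11 ± 0.36 (SE, adjusted p = 0.00592). Nr4a1, also called Nur77, measured 884, 939 and 919.6 CPM in the control samples and 348, 424 and 449.6 CPM in the HFD samples. Its control samples were tightly grouped and all above HFD, with a log2 fold change of -1.17 ± 0.11 (SE, adjusted p = 0.000232) in whole samples and -0.97 ± 0.13 (SE, adjusted p = 0.00245) in macrophage-like sums. Nr4a2 had log2 fold changes of -1.96 ± 0.27 (SE, adjusted p = 0.00104) and -1.05 ± 0.24 (SE, adjusted p = 0.0197), and the second was lost without control 2, HFD 1 or HFD 2.

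Egr1, a zinc finger factor driven by serum response factor, had the highest level of this group in whole samples, 1519.9, 1217 and 1492 CPM in the control samples and 752, 912 and 892 CPM in the HFD samples. No HFD sample reached a control sample, and the log2 fold change was -0.73 ± 0.12 (SE, adjusted p = 0.00196). In macrophage-like sums Egr1 measured 2136, 1638 and 1661 CPM in the control samples and 655, 835 and 819.5 CPM in the HFD samples, with control 1 the highest, and the log2 fold change was -1.24 ± 0.14 (SE, adjusted p = 0.00129). Egr2, its relative, gave -0.80 ± 0.14 (SE, adjusted p = 0.00283) and -1.01 ± 0.15 (SE, adjusted p = 0.00372). Cebpb, a factor of macrophage and inflammatory gene expression, measured 1166, 1077 and 1041 CPM in the control samples and 874, 1049 and 1008 CPM in the HFD samples. The groups overlapped and neither sum passed (-0.16 ± 0.10 SE, adjusted p = 0.23 and -0.23 ± 0.16 SE, adjusted p = 0.342).

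Klf2, a zinc finger factor known to restrain myeloid activation, and Ier2, an immediate early nuclear protein, differed in call between the sums. Klf2 gave -0.29 ± 0.12 (SE, adjusted p = 0.0902) in whole samples and -1.04 ± 0.18 (SE, adjusted p = 0.00647) in macrophage-like sums, and Ier2 gave -0.24 ± 0.09 (SE, adjusted p = 0.068) and -0.63 ± 0.13 (SE, adjusted p = 0.0118). Both were highest in fibroblast-like cells, Klf2 at 2433 ± 407 CPM and Ier2 at 1603 ± 289 CPM (SD, n = 5), as Jun was. Klf6, a related factor, was lower in both sums (-0.41 ± 0.09 SE, adjusted p = 0.00661 and -0.42 ± 0.10 SE, adjusted p = 0.0224), the second lost without any 1 of 5 samples (all but control 3).

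Sequences upstream of the start site were at hand from RefSeq (build GRCm38.p6) for 29 of the 34 genes, and 3 are shown because they hold a motif for a factor class that drives such genes. For Egr2 on chromosome 10 (chr10:67537316-67537565, plus strand, before the second listed start site), the capitals mark a CArG box, the motif bound by serum response factor.
Egr2: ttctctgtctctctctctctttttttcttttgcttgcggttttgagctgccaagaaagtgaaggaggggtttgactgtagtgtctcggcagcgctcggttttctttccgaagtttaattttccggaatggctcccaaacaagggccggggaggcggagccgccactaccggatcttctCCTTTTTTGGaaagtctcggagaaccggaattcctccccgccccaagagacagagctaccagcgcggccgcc

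The 8 feedback inhibitors were called lower for 5 and higher for 1 in whole samples, and lower for 3 and higher for 0 in macrophage-like sums. Ier3, which limits cell death and NF-kB activity, measured 667, 504 and 445 CPM in the control samples and 211, 239 and 174 CPM in the HFD samples. Even the lowest control sample was well above the highest HFD sample, and the log2 fold change was -1.37 ± 0.17 (SE, adjusted p = 0.000564). In macrophage-like sums Ier3 measured 1212, 683 and 608 CPM in the control samples and 228, 263 and 183 CPM in the HFD samples, with control 1 far above the rest, and the log2 fold change was -1.90 ± 0.26 (SE, adjusted p = 0.00245). Ppp1r15a (GADD34), which brings a phosphatase to eIF2 alpha and so restores translation after stress, measured 315, 291 and 334 CPM in the control samples and 172, 183 and 204 CPM in the HFD samples. Groups did not overlap, and the log2 fold change was -0.75 ± 0.10 (SE, adjusted p = 0.000755). Its macrophage-like value, -0.60 ± 0.16 (SE, adjusted p = 0.0312), lost the call without any 1 of 5 samples (all but control 3) and with every deposited entry counted (-0.26, adjusted p = 0.206). Its sequence is shown for the cyclic AMP response element in capitals, TGACGTCA, which begins 12 bases before the start site (chromosome 7, chr7:45526269-45526518, minus strand).
Ppp1r15a: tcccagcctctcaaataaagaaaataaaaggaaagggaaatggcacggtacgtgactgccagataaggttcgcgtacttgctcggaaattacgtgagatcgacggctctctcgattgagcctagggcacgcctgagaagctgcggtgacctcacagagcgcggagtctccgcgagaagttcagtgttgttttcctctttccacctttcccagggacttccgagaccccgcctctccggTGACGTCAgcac

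Socs3, which blocks JAK-STAT signalling downstream of interleukin 6 and leptin receptors, was the one gene of the 34 that was higher in HFD. Its whole-sample level was 189, 164 and 150.4 CPM in the control samples and 310.3, 272 and 315 CPM in the HFD samples. All HFD samples were above all control samples, and the log2 fold change was 0.83 ± 0.11 (SE, adjusted p = 0.000755). Counting only barcodes that stand in 1 sample it was 1.94 (adjusted p = 1.31e-05). In macrophage-like sums it measured 166, 108 and 105 CPM in the control samples and 199.7, 161 and 210.2 CPM in the HFD samples, where HFD 2 lay below control 1, and the difference of 0.58 ± 0.19 (SE, adjusted p = 0.0633) did not pass. It did pass there without control 1 (0.86, adjusted p = 0.00658), under DESeq2 (0.61, adjusted p = 0.0495), with total-count scaling and with 4 other settings given in the closing section. Fibroblast-like cells held 1134 ± 279 CPM (SD, n = 5) of Socs3, and the next class, monocyte-like cells, 250.2 ± 94.7 CPM (n = 6). Summed markers moved with this, the 9 fibroblast or fat progenitor genes standing at 969 to 2162 CPM in control and 6369 to 7338 CPM in HFD whole samples and at 247 to 420 and 809 to 897 CPM in macrophage-like sums; their part in the Socs3 value was not tested.

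Dusp1, a phosphatase that switches off p38 and JNK, had the highest level of the inhibitors, 1817, 1862 and 1935 CPM in the control samples and 1772, 1800.0 and 1814 CPM in the HFD samples. Samples of the 2 diets lay close together, and the log2 fold changes of -0.06 ± 0.08 (SE, adjusted p = 0.593) and -0.06 ± 0.09 (SE, adjusted p = 0.676) did not pass. Zfp36 (tristetraprolin), which leads AU-rich messenger RNA to decay, measured 1207, 1232 and 1393 CPM in the control samples and 847, 1006 and 1008 CPM in the HFD samples. It was lower in every HFD sample, with log2 fold changes of -0.42 ± 0.10 (SE, adjusted p = 0.0134) and -0.49 ± 0.11 (SE, adjusted p = 0.0176), and both calls were lost without HFD 1 (-0.34, adjusted p = 0.0619, and -0.40, adjusted p = 0.0866). Leaving out HFD 2 ended the macrophage-like call as well (adjusted p = 0.0514), and the whole-sample call was lost with total-count scaling (-0.28, adjusted p = 0.0687). Gadd45b, a growth arrest and MAP kinase regulator, had opposite signs in the sums. In whole samples it measured 265, 288 and 276 CPM in the control samples and 213, 233 and 227 CPM in the HFD samples, lower in each HFD sample (-0.30 ± 0.08 SE, adjusted p = 0.0217). In macrophage-like sums it measured 187, 184 and 235 CPM in the control samples and 213, 255 and 235 CPM in the HFD samples, the groups overlapped, and the value was 0.21 ± 0.13 (SE, adjusted p = 0.295). Btg2, an antiproliferative factor that promotes RNA deadenylation, gave -0.52 ± 0.13 (SE, adjusted p = 0.0147) and -0.33 ± 0.15 (SE, adjusted p = 0.151). Dusp2, a phosphatase of ERK and p38, passed in neither sum (-0.26 and 0.51).

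Of the 6 heat shock genes, Hspa1a, Hspa1b, Dnajb1 and Hsp90aa1 were lower in both sums, and Hspa8 and Hsph1 passed in neither. Hspa1a and Hspa1b encode the inducible HSP70 from near-identical neighbouring copies, so how reads were divided between them is uncertain. In whole-sample sums Hspa1a measured 182, 106 and 130.5 CPM in the control samples and 49.2, 44.3 and 59.1 CPM in the HFD samples. HFD samples were all lower, control 1 was the highest, and the log2 fold change was -1.46 ± 0.19 (SE, adjusted p = 0.000823). In macrophage-like sums Hspa1a measured 341, 167 and 173 CPM in the control samples and 42.5, 48.4 and 54.5 CPM in the HFD samples, and the log2 fold change was -2.25 ± 0.27 (SE, adjusted p = 0.00149). In those sums Hspa1b measured 40.4, 31.6 and 21.7 CPM in the control samples and 3.58, 1.79 and 4.68 CPM in the HFD samples, from as few as 5 UMIs in a sample. Its log2 fold changes were -3.17 ± 0.35 (SE, adjusted p = 0.000963) there and -1.92 ± 0.21 (SE, adjusted p = 0.000351) in whole samples. Hspa8, the constitutive HSP70, measured 1929, 1854 and 1532 CPM in the control samples and 1579, 1483 and 1658 CPM in the HFD samples, with overlapping groups and log2 fold changes of -0.17 ± 0.10 (SE, adjusted p = 0.247) and 0.03 ± 0.10 (SE, adjusted p = 0.879).

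Dnajb1, the J-protein partner of HSP70, was picked out after its values were seen. In macrophage-like sums it measured 321, 182 and 124 CPM in the control samples and 56.8, 54.1 and 55.9 CPM in the HFD samples. The HFD samples were nearly equal and all below control, where control 1 stood highest, with a log2 fold change of -1.92 ± 0.29 (SE, adjusted p = 0.0036). In whole samples it was -1.08 ± 0.26 (SE, adjusted p = 0.0125), and without control 1 it was -0.62 (adjusted p = 0.00442). Hsp90aa1, the inducible HSP90, measured 251, 251 and 247 CPM in the control samples and 197, 188 and 194 CPM in the HFD samples. It was lower in every HFD sample, with log2 fold changes of -0.37 ± 0.08 (SE, adjusted p = 0.0059) and -0.44 ± 0.11 (SE, adjusted p = 0.027), the second lost without any 1 of 5 samples (all but control 3). With only barcodes in 1 sample the whole-sample call was lost (-0.29, adjusted p = 0.137), and with total-count scaling the macrophage-like call (-0.34, adjusted p = 0.0589). Hsph1, a nucleotide exchange factor for HSP70 and the lowest of these genes beside Hspa1b, passed in neither sum, at 7.43 to 26.2 CPM in whole samples.

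The upstream sequences of the HSP70 pair are shown because both copies were lower in HFD. These bases lie before the transcript and say nothing on how reads were divided. They are identical at 247 of 250 positions, and the capitals mark the 3 that differ (chromosome 17, minus strand, chr17:34972157-34972406 and chr17:34959239-34959488).
Hspa1a: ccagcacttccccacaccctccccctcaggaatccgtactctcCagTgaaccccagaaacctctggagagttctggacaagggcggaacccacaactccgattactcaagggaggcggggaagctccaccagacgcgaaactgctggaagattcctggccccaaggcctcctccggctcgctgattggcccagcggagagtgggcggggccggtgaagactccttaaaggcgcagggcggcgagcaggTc
Hspa1b: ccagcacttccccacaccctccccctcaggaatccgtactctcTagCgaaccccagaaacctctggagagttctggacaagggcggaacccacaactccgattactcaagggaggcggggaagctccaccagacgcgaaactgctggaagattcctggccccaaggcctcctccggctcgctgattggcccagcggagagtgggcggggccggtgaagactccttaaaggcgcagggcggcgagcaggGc

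All 4 genes of the NF-kB pathway were lower in whole samples, and Nfkbiz alone in macrophage-like sums. Nfkbia (I kappa B alpha), which NF-kB induces and which then carries NF-kB out of the nucleus, measured 1952, 2319.9 and 2173 CPM in the control samples and 1478, 1553 and 1714 CPM in the HFD samples. The lowest control sample stood above the highest HFD sample, with a log2 fold change of -0.44 ± 0.10 (SE, adjusted p = 0.0088). In macrophage-like sums the difference of -0.28 ± 0.11 (SE, adjusted p = 0.101) did not pass, although it did with clusters cut at other resolutions, where the sums held more control cells. Nfkbiz (I kappa B zeta), a nuclear cofactor needed for late NF-kB targets, measured 809, 749 and 749 CPM in the control samples and 321, 399 and 454 CPM in the HFD samples. Its control samples were close together and all above HFD, with log2 fold changes of -0.97 ± 0.13 (SE, adjusted p = 0.000759) and -1.04 ± 0.16 (SE, adjusted p = 0.00409). Rel, the c-Rel subunit, measured 60.4, 64.7 and 65.0 CPM in the control samples and 23.4, 22.2 and 33.9 CPM in the HFD samples. Groups were clear of each other, and the log2 fold changes were -1.25 ± 0.16 (SE, adjusted p = 0.000759) and, in macrophage-like sums, -0.57 ± 0.21 (SE, adjusted p = 0.0858). Tnfaip3 (A20), which removes ubiquitin chains that carry the signal, gave -0.67 ± 0.13 (SE, adjusted p = 0.00439) and -0.22 ± 0.14 (SE, adjusted p = 0.296). Counting only barcodes in 1 sample, its macrophage-like value turned to 0.70 and passed in the other direction (adjusted p = 0.0215). With each macrophage-like cell thinned to 3000 UMIs, 30.8, 42.9 and 39.4% of cells held a Tnfaip3 UMI in the control samples. In the HFD samples it was 43.5, 44.0 and 50.6%, all above control, whereas at 1500 UMIs the groups overlapped. Nfkbia is shown for the NF-kB motif in capitals, 29 bases before its start (chromosome 12, chr12:55492648-55492897, minus strand).
Nfkbia: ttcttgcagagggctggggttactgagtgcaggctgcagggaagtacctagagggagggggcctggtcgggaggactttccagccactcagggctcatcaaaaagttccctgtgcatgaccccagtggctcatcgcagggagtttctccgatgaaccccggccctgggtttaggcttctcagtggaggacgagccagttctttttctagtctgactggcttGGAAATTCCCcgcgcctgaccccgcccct

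In the 250 bases before any listed start site, searched on both strands, the NF-kB motif stood in 7 of 29 genes (24.1%; Fos, Fosb, Fosl2, Ier3, Nfkbia, Tnfaip3 and Rel), against 4.46% of 27025 genes. The cyclic AMP response element TGACGTCA stood in 3 (10.3%; Dusp1, Btg2 and Ppp1r15a), against 1.77%, and the CArG box in 2 (6.90%; Egr2 and Zfp36), against 1.62%. At the first listed start alone, the CArG box stood in 1 of 29 (3.45%), against 1.40%, and the other counts were as given. The AP-1 site TGANTCA was found in 1 (3.45%; Tnfaip3), against 7.82%. The heat shock element, searched in one strict form, was in 0 windows, against 0.514%. A match describes these letters and does not show binding, and the motifs were searched separately, so that a stretch can count for more than 1. Nfkbia, Tnfaip3 and Rel were listed as genes of the NF-kB pathway, so the share with the NF-kB motif is not independent of how the genes were chosen.

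The share of all UMIs that fell in the 34 genes summed these differences. It was 2.48, 2.37 and 2.56% in the control samples and 2.11, 2.20 and 2.21% in the HFD samples, all below control. In macrophage-like cells it was 2.84, 2.48 and 2.51% against 1.98, 2.08 and 2.11%. AP-1 subunits took 0.805 ± 0.0448% (SD, n = 3) of UMIs in control and 0.821 ± 0.0121% in HFD whole samples, with overlap, and 0.877 ± 0.0487% and 0.748 ± 0.0108% in macrophage-like cells, without. Heat shock genes, most of whose UMIs are Hspa8, overlapped between diets in both, whereas the other 3 roles had every HFD sample below every control sample. Counting every deposited entry, the difference in the whole-sample share went from -0.30 to -0.12 percentage points and the groups overlapped.

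Per cell, the share fell into a low and a high peak in 5 of 6 samples, with no dip between them in control 3. With each macrophage-like cell thinned to 3000 UMIs, 1107 cells could be used, and a minority lay below 1% of UMIs in the 34 genes, a limit set after the data were seen. That minority was 14.1, 13.1 and 10.9% of macrophage-like cells in the control samples and 25.5, 27.7 and 16.7% in the HFD samples. It was largest in HFD 1 and HFD 2, and no HFD sample was as low as a control sample. The median macrophage-like cell had 3.08, 2.65 and 2.57% of its UMIs in these genes in the control samples, and 2.12, 2.30 and 2.37% in the HFD samples. At the median, a macrophage-like cell had 22, 21 and 20 of the 34 genes detected in control and 18, 19 and 19 in HFD. The cells below 1% had a median of 6638 UMIs before thinning in control, where the other cells had 7545, and 11313.5 against 12103 in HFD. Their median mitochondrial shares were 2.87% against 2.91% in control and 2.69% against 2.44% in HFD. Of the 170 low HFD cells, 90 were in macrophage-like cluster 3, described below, as were 2 of the 48 in control. In that cluster 35.2% of HFD cells and 12.5% of 16 control cells were low. The HFD and control shares were 21.9% and 17.5% in cluster 0 and 21.3% and 14.7% in cluster 1. They were 8.39% and 3.64% in cluster 5, and 0% and 8.57% in cluster 9. Whether cluster numbers, depth or mitochondrial share bear on the low cells was not tested.

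**Figure D3:**
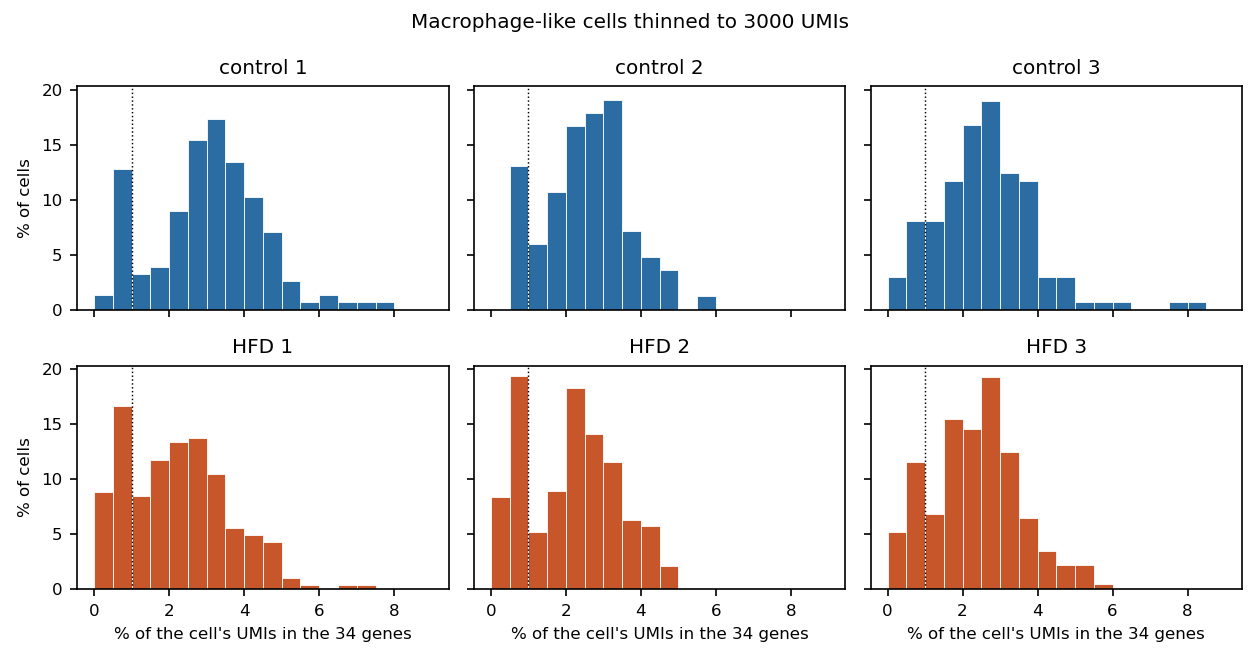
Distribution over macrophage-like cells, each thinned to 3000 UMIs, of the share of a cell's UMIs in the 34 genes (bins of 0.5%), as a percentage of the cells of each sample; the dotted line is at 1%. The cells left of the line, a separate peak in all samples but control 3, are 10.9 to 14.1% of cells in control and 16.7 to 27.7% in HFD.

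Macrophage-like cells were 5 clusters whose numbers turned over with diet, and their sum holds both the cluster shares and the levels inside clusters. Cluster 1, led by resident genes such as Cd209f, F13a1 and Folr2, had 269 control and 47 HFD cells. Cluster 0, led by Apoe and C1q genes, had 48 and 271, and cluster 3, led by Gpnmb, Trem2 and Lpl, had 16 and 260. Summed markers in macrophage-like sums moved with this, with 8 perivascular resident genes at 3721 to 5710 CPM in control and 1144 to 1216 CPM in HFD, and 8 lipid-associated genes at 706 to 5295 CPM and 7022 to 10351 CPM. Cluster 3 had the lowest median share of UMIs in the 34 genes within each diet, 1.92% over 16 control cells and 1.57% over 256 HFD cells. In cluster 1 the median was 3.07% over 231 control and 2.70% over 47 HFD cells, and in cluster 0 it was 2.5% over 40 control and 2.75% over 260 HFD cells. Of the 5 clusters, cluster 1 was highest in control cells and cluster 0 in HFD cells. Averaged over samples with at least 5 cells, which for cluster 3 are control 3 and the 3 HFD samples, cluster 3 was also the lowest of the 5 in Ier3 (91.8 CPM, against 1006 CPM in cluster 1), Nr4a3 (15.7 CPM), Hspa1a (31.5 against 253 CPM) and Jun (335 against 1359 CPM).

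Within single clusters fewer genes could be called at all. These fits were added after the data were seen and use the 4 clusters with at least 10 cells in every sample. In cluster 1, 4 genes were lower and 1 higher, where 1.78% of 3146 genes were called lower and 1.18% higher (2.96% in all). Without a test, 13 of its 32 members had every HFD sample below every control sample (11.9% of all genes) and 1 had every HFD sample above (10.9%). Egr2 in that cluster measured 516, 392 and 539 CPM in the control samples and 131, 230.3 and 171 CPM in the HFD samples. Groups did not overlap, and the log2 fold change was -1.46 ± 0.22 (SE, adjusted p = 0.0034), with -0.94 ± 0.18 (SE, adjusted p = 0.0147) for Egr1, -1.01 ± 0.19 (SE, adjusted p = 0.012) for Nr4a1 and -1.58 ± 0.33 (SE, adjusted p = 0.0231) for Dnajb1. In cluster 1 Socs3 measured 134, 65.3 and 152 CPM in the control samples and 398, 365 and 386 CPM in the HFD samples, with all HFD samples higher and a log2 fold change of 1.67 ± 0.25 (SE, adjusted p = 0.0034). In cluster 0, where 0.9% of 4887 genes were called lower and 0.45% higher (1.35% in all), Socs3 was higher (1.66 ± 0.30 SE, adjusted p = 0.00771) and Dnajb1 lower (-1.32 ± 0.27 SE, adjusted p = 0.0146), and no other member passed. There 6 of 32 members had all HFD samples below control (8.29% of all genes) and 3 above (10.3%). Nr4a3 in cluster 0 gave -2.10 ± 0.57 (SE, adjusted p = 0.0841) and Hspa1a in cluster 1 -1.01 ± 0.26 (SE, adjusted p = 0.0566).

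In cluster 5, led by Cxcl2 and MHC class II genes, 0 of 32 members tested passed (edgeR), where 0.0495% of 4041 genes did. In cluster 7, which is monocyte-like, 0 of 28 members tested passed, where 0.0679% of 1473 genes did. In cluster 5, 4 of 32 members had every HFD sample below control (7.03% of all genes) and 2 above (8.02%), and in cluster 7, 1 of 28 was below (9.16%) and 3 above (6.25%). The medians over the members tested were -0.05 in cluster 0 (32 tested), -0.27 in cluster 1 (32), -0.13 in cluster 5 (32) and 0.10 in cluster 7 (28), against 0.02, 0.02, -0.01 and 0.03 over all genes. A test of whether the diet difference varied between these 4 clusters called 3 of 3454 genes and 0 of 32 members (edgeR). The smallest adjusted p of a member was 0.273, for Egr1. With as few as 11 cells of a cluster in a sample, 0 calls do not show that the diet difference was alike in the 4 clusters. Clusters 3 and 9 had under 10 cells in some samples and were not fitted.

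Across all classes, levels of the 34 genes (unscaled CPM, mean ± SD over samples with at least 5 cells of the class) were highest in fibroblast-like cells for 15 genes, in monocyte-like cells for 7 and in migratory dendritic cell-like cells for 4. For 17 of the 34 genes the lead over the next class was within 1 SD, among them 5 of those 15, 4 of the 7 and 3 of the 4. The samples averaged differ between classes, so a diet difference can enter the order. Fos reached 3875 ± 882 CPM (n = 5) in fibroblast-like cells, and the next class, monocyte-like, had 2048 ± 685 CPM (n = 6). Cebpb was highest in monocyte-like cells, 3341 ± 640.3 CPM (n = 6), against 1591 ± 409.8 CPM in fibroblast-like cells. Dusp2 was also highest in monocyte-like cells, 604 ± 232 CPM (n = 6), and lowest in fibroblast-like cells, 25.04 ± 22.2 CPM (n = 5). Migratory dendritic cell-like cells had the most Nfkbia, 2964 ± 816 CPM (n = 5), within 1 SD of monocyte-like cells at 2766 CPM, and the most Rel, 141 ± 43.9 CPM, within 1 SD of cDC2-like cells at 121 CPM. They had the least Fos, Jun and Cebpb of any class, at 368, 116 and 181 CPM.

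Nr4a3 was high in migratory dendritic cell-like cells (220.0 ± 122 CPM, n = 5) and in the unnamed cluster led by Retnla and Ear2 (211 ± 9.51 CPM, n = 3, control samples only), which do not differ beyond their spread. That cluster had 272 control cells and 10 HFD cells. Fosl2 in its 3 control samples was 379.6 ± 52.3 CPM, and in T cell-like cells of both diets 219 CPM. As a gauge of free RNA, the macrophage gene C1qa had a level of 332 ± 168 CPM in the fibroblast-like class, where 54.2% of cells thinned to 3000 UMIs held a C1qa UMI, and 3718 ± 753 CPM in the macrophage-like class (97.7% of cells). In the same thinned cells, Socs3 was found in 76.0% of fibroblast-like and 31.4% of macrophage-like cells, and Nr4a3 in 7.11% and 9.49%, the median depths before thinning being 6823 and 9497 UMIs. Levels at or under the share of free RNA in a class are not read as expression by that class.

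**Figure D4:**
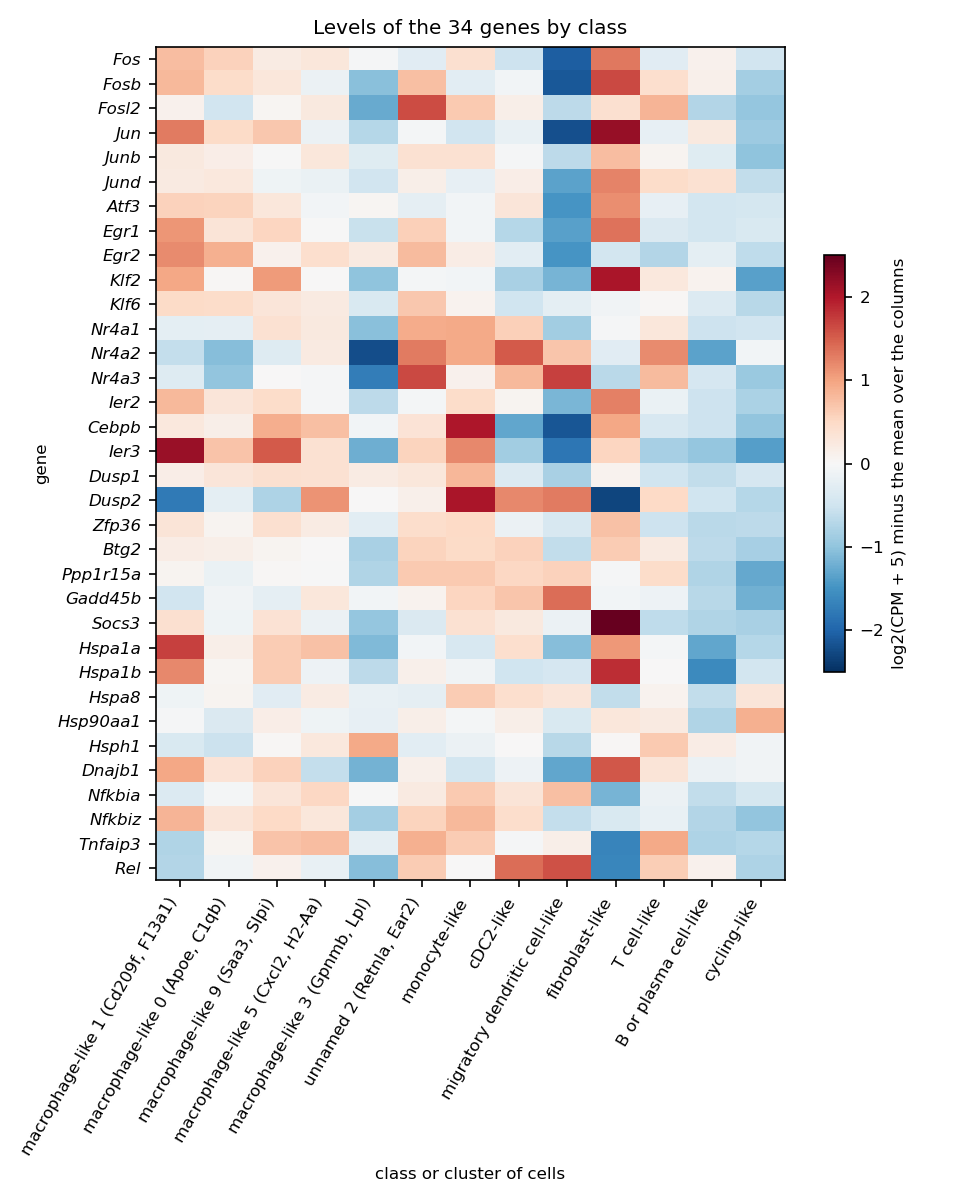
Level of each of the 34 genes in 5 macrophage-like clusters, the unnamed cluster and 7 other classes, as log2(CPM + 5) minus the gene's mean over the 13 columns (red above, blue below). Fibroblast-like cells are red for most AP-1 genes, Klf2 and Socs3 and blue for Dusp2, Tnfaip3 and Rel, and macrophage-like cluster 3 is blue for Nr4a2, Nr4a3 and Fosl2.

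Cells that had more of one role tended to have more of the others, and the summed heat shock genes followed least. Over the 1107 thinned macrophage-like cells, correlated within each sample and then averaged, the summed AP-1 subunits had a Pearson r of 0.76 with the other transcription factors, 0.79 with the feedback inhibitors and 0.65 with the NF-kB genes. With the summed heat shock genes r was 0.28, and it ranged from 0.10 to 0.58 over the 6 samples. Most of that sum is Hspa8 (mean 1620 CPM in macrophage-like sums, against 138 for Hspa1a and 132 for Dnajb1). It therefore says little on the inducible heat shock genes. Among single genes the highest of 561 pairs were Junb with Nfkbia (0.63), Junb with Dusp1 (0.60) and Fos with Junb (0.59). The median pair had an r of 0.12, 190 pairs were above 0.2 and 59 below 0. These cells share their library and were thinned to a common depth, and the values describe them only.

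Among 3027 other genes found in at least 10% of these cells, those most like the summed 34 genes were H3f3b (mean r 0.60 over 6 samples), which encodes the replication-independent histone H3.3, and Cxcl2 (0.53), a neutrophil attractant. Marcksl1 (0.52), Ier5 (0.47), Cd83 (0.43), Ccl2 (0.43), Ddx5 (0.38), Ifrd1 (0.36), Pnrc1 (0.35) and Cdkn1a (0.35) followed. At the other end stood the lysosomal proteases Ctsb (-0.32) and Ctsd (-0.31) and the galectin Lgals1 (-0.29).

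Genes of the same pathways outside the 34 went down more often than up in whole samples, with 57 of 116 tested lower and 8 higher, and 27 lower and 3 higher of 112 in macrophage-like sums (background as above). Those 30 macrophage-like calls became 14 without HFD 1, 18 without HFD 2 and 47 without control 3, and 57 and 55 with clusters at resolution 0.5 and 2.0. The sums at those resolutions held more control cells. The lists had median log2 fold changes of -0.43 and -0.34. Among other immediate early genes 16 of 24 were lower and 2 higher in whole samples, led by Tob1, an antiproliferative relative of Btg2 (-1.52 ± 0.13 SE, adjusted p = 0.000183), Ets2, an Ets family factor (-1.36 ± 0.13 SE, adjusted p = 0.000234), and Mcl1, a short-lived survival protein (-0.93 ± 0.09 SE, adjusted p = 0.000234). In macrophage-like sums 9 were lower and 1 higher. Upstream kinases and factors gave 4 lower and 1 higher of 16 in whole samples, against 17.2% and 15.2% of all genes. The lower ones included Mapkapk2 (-0.80 ± 0.10 SE, adjusted p = 0.0006) and Mapk14 (-0.78 ± 0.10 SE, adjusted p = 0.000799), which form the p38 branch, and Srf, the serum response factor (-0.998 ± 0.219 SE, adjusted p = 0.00834). The higher one was Mapk3, the kinase ERK1 (0.49 ± 0.13 SE, adjusted p = 0.0192), which did not pass in macrophage-like sums (0.44 ± 0.16 SE, adjusted p = 0.0911). Mapkapk2, Mapk14 and Srf were the 3 of 16 called there, all lower, against 10.2% of all genes.

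Other heat shock and chaperone genes gave 4 higher and 3 lower of 19 in whole samples, shares near those of all genes (15.2% and 17.2%). In macrophage-like sums 2 were higher and 0 lower, against 6.81% and 10.2% of all genes. Bag3, an HSP70 cochaperone (0.93 ± 0.12 SE, adjusted p = 0.000847 and, in macrophage-like sums, 0.77 ± 0.19 SE, adjusted p = 0.0267), and Ahsa1, an activator of HSP90 (0.70 ± 0.10 SE, adjusted p = 0.00102 and 0.82 ± 0.13 SE, adjusted p = 0.00444), were higher in HFD. Hsp90b1, the HSP90 of the endoplasmic reticulum, was lower in whole samples (-0.42 ± 0.10 SE, adjusted p = 0.0144).

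Of 19 other NF-kB subunits, kinases and feedback genes 12 were lower and 1 higher in whole samples, led by Tnip3, a partner of A20 (-0.67 ± 0.09 SE, adjusted p = 0.000888), Traf1, a receptor adaptor (-1.55 ± 0.21 SE, adjusted p = 0.000925), and Nfkb1, the p105 and p50 subunit (-0.65 ± 0.09 SE, adjusted p = 0.00114). Tnip3, Traf1 and Nfkb1 did not pass in macrophage-like sums, where Tnip3 had the opposite sign (0.34 ± 0.25 SE, adjusted p = 0.379). Traf1 was at -0.56 ± 0.27 (SE, adjusted p = 0.183) and Nfkb1 at -0.23 ± 0.18 (SE, adjusted p = 0.397) there. In macrophage-like sums 2 of 19 were lower, a share near the 10.2% of all genes, namely the nuclear inhibitor Nfkbid (-0.90 ± 0.19 SE, adjusted p = 0.0135) and the kinase Ikbkb (-0.66 ± 0.15 SE, adjusted p = 0.0175). Inflammatory effectors gave 9 lower of 18 and 0 higher, led by the cytokines Il1b (-1.48 ± 0.16 SE, adjusted p = 0.000346) and Il6 (-2.27 ± 0.25 SE, adjusted p = 0.000369) and the monocyte attractant Ccl2 (-2.16 ± 0.24 SE, adjusted p = 0.000414). In macrophage-like sums 6 of 17 were lower, with Ccl7, a chemokine close to Ccl2, at -2.79 ± 0.29 (SE, adjusted p = 0.000773). Il6 and Ccl2 were also among those 6, and Il1b did not pass there (-0.56 ± 0.18 SE, adjusted p = 0.0574). Il6 differed widely within control in these sums, at 206, 185 and 17.1 CPM, with 3.13 to 5.02 CPM in the HFD samples. JAK-STAT genes gave 7 lower of 11, with Jak2, a receptor-associated kinase (-1.52 ± 0.19 SE, adjusted p = 0.000681), Cish, a relative of Socs3 (-2.54 ± 0.34 SE, adjusted p = 0.000923), and Stat3, its activator (-0.64 ± 0.10 SE, adjusted p = 0.00212), and 0 higher, unlike Socs3. In macrophage-like sums 3 of 9 were lower, Stat3 among them (-0.61 ± 0.15 SE, adjusted p = 0.024). Jak2 did not pass there (-0.72 ± 0.23 SE, adjusted p = 0.0607), and Cish was not tested. RNA decay factors gave 6 lower of 9 in whole samples and 4 of 8 in macrophage-like sums, and Zfp36l2, a relative of Zfp36, was lower in both (-0.80 ± 0.09 SE, adjusted p = 0.00035 and -1.05 ± 0.12 SE, adjusted p = 0.000963).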

How the data were processed

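The authors deposited raw UMI counts per gene and cell barcode for 6 samples, and per the submitters' processing notes Cell Ranger, Seurat 2.4 and build mm9 were used, without a stated role. How barcodes were called as cells: not given in the sources used here. Cells with at least 200 genes and at most 10% mitochondrial UMIs were kept, each barcode in the sample where it had most UMIs. No doublet caller was run. Cells were clustered with scanpy 1.11.5 and leidenalg 0.10.2 (2000 variable genes without the 34 genes and 118 genes of 7 related lists, 30 components, 20 neighbours, resolution 1.0) and named from marker lists. The naming thresholds were set after the clusters were seen.

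Counts were summed per sample and tested with edgeR 4.0.16 in R 4.3.3 (TMM, filterByExpr, quasi-likelihood), as HFD minus control with 3 samples each, at an adjusted p of 0.05. CPM for diets are UMIs scaled to a common total and divided by the TMM factor. No other class had at least 20 cells in 2 samples of each diet, as the planned fits asked, and the fits of single clusters with at least 10 cells in every sample, the monocyte-like cluster 7 among them, were added after the data were seen. Alternatives, among them DESeq2 1.42.0, are in the closing section. The members and lists were chosen with earlier results of these data known. Values in every sample are given for the 2 genes of highest level and the 2 of smallest p in each role and for Gadd45b, and Jun, Dnajb1 and Socs3 were added after their values were seen. From each related list up to 3 genes of smallest p were eligible to be named, and Mapk3 was added as the upstream gene called higher.

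The fit was also run on simulated counts of 10450 genes for whole samples and 8796 for macrophage-like sums, with a small part of the genes changed. For whole samples it recovered 67% of 2-fold and 97% of 4-fold changes, with 7.87% false among calls. For macrophage-like sums it recovered 65% and 93%, with 8.14% false. In the real data 32.4% and 17% of genes were called, a larger part than was changed in the simulation, so these rates may not carry over. Promoter sequences are from RefSeq.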

Additional observations from a re-analysis of the deposited data

How the results depend on the processing

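Over 476 comparisons of the 34 genes with an alternative in whole-sample sums, 422 kept direction and side of the threshold, 30 lost and 12 gained a call and 12 changed sign. In macrophage-like sums the numbers were 509, 33, 22 and 12 of 576. In every alternative run, 16 of the 23 whole-sample calls and 12 of the 19 macrophage-like calls were kept (Hspa1b was not tested among barcodes in 1 sample in macrophage-like sums). Members called, in all, ranged from 19 to 24 in whole samples and 13 to 20 in macrophage-like sums when 1 sample was left out, with 18 to 22 and 13 to 19 lower. Higher calls ranged from 1 to 2 and from 0 to 1 (main 1 and 0), and calls in the related lists from 49 to 63 and from 14 to 47 (main 65 and 30), the extremes being without HFD 1 and without control 3. Higher calls in whole samples were 3 with total counts only, 2 with no filter on low counts, 2 with every deposited entry and 5 with only barcodes in 1 sample. In macrophage-like sums they were 1 with DESeq2, 1 with total counts only, 2 with no filter on low counts, 1 with every deposited entry, 3 with only barcodes in 1 sample and 1 at resolution 2.0. Calls in the related lists in macrophage-like sums were 57 at resolution 0.5 and 55 at resolution 2.0. The cells summed differed there, mostly in control. Control samples held 291, 203 and 279 macrophage-like cells at resolution 0.5 and 216, 129 and 210 at 2.0, against 170, 100 and 159 in the main setting. HFD samples held 329, 215 and 256, then 313, 196 and 239, against 310, 197 and 240. The share of UMIs in the members differed by -0.12 percentage points with every deposited entry (main -0.30). The causes of these shifts were not tested. As a replicate block, the replicate numbers gave 20 member calls in whole samples (19 lower) and 14 in macrophage-like sums, and 53 and 19 in the lists. Deviations of same-numbered samples correlated at -0.16, -0.069 and -0.12 in whole samples and -0.22, 0.027 and -0.14 in macrophage-like sums, so the numbers were not taken to pair samples.

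Signs that changed in whole samples were Jun 0.065, Jund 0.026 and Dusp1 0.082 with total counts only, Jund 0.058 with every deposited entry, and Jun 0.37, Jund 0.20, Klf2 0.26, Ier2 0.078, Cebpb 0.39, Dusp2 0.19 and Hspa8 0.028 with only barcodes in 1 sample. Jun ranged from -0.13 to 0.0074 when 1 sample was left out, changing sign without control 1. In macrophage-like sums they were Dusp1 0.035 with total counts only and 0.030 with no filter on low counts, Jund 0.11 and Tnfaip3 0.054 with every deposited entry, and Cebpb 0.42, Dusp1 0.083, Tnfaip3 0.70 and Rel 0.28 with only barcodes in 1 sample. Hspa8 ranged from -0.00036 (without HFD 3) to 0.12. With other clusters, Fos was 0.047 and Hspa8 -0.032 at resolution 0.5, and Hspa8 was -0.12 when clustered with the members and lists. Hspa1b and Hsph1, with the fewest UMIs, are the least precise.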
